A study of Mus musculus with 12 samples.

Results

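Phase II conjugation enzymes were followed in liver and quadriceps muscle of mice that carry a hypomorphic mutation of PGC1beta, a transcriptional coactivator encoded by Ppargc1b. The set held every gene whose symbol placed it among the glutathione S-transferases of the Gsta, Gstk, Gstm, Gsto, Gstp, Gstt and Gstz classes, the UDP-glucuronosyltransferases (Ugt) or the sulfotransferases (Sult). It came to 44 genes on 56 probe sets, of 18193 genes and 45037 probe sets on the array. The Gst family gave 20 genes on 27 probe sets, the Ugt family 11 genes on 14, and the Sult family 13 genes on 15. The rule reads gene symbols.

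RNA was measured with Affymetrix Murine 430 2.0 arrays in 4 groups of 3 arrays each: liver of control mice, liver of PGC1beta mutant mice, and quadriceps muscle of control and of mutant mice, all on the C57BL/6 strain. The labels give neither the age of the mice nor the molecular nature of the mutation, and they do not say that the 3 samples of a group are separate mice. A p-value here thus measures no more than how these samples scatter, and that scatter may be technical. The question addressed here was whether the mutation went with a change in the conjugation enzymes of the liver, with muscle as the second tissue.

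Conjugation is the second phase of the handling of drugs, hormones, bile acids and bilirubin in the liver. Glutathione S-transferases join glutathione to reactive electrophiles, glucuronosyltransferases of the endoplasmic reticulum add glucuronic acid from a UDP-sugar, and cytosolic sulfotransferases add sulfate from the donor PAPS. Hepatocytes carry the bulk of these enzymes, and many of the genes lie in tandem clusters of closely related copies.

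Sult1b1 and Sult1d1, both cytosolic sulfotransferases and next to each other on chromosome 5 with 0 protein-coding genes between them, were the members that passed the test in liver. The 250 bases before their RefSeq start sites (build GRCm38.p6) are therefore shown, all on the minus strand, written 5′ to 3′ and ending at the base before the start. Sult1b1 has 2 listed starts, at chr5:87538196-87538445 and chr5:87536223-87536472, and Sult1d1 has 1, at chr5:87569007-87569256. Capitals mark GTTAAT, the core of the element read by the liver factor HNF1, which was searched on both strands.
Sult1b1, start 1: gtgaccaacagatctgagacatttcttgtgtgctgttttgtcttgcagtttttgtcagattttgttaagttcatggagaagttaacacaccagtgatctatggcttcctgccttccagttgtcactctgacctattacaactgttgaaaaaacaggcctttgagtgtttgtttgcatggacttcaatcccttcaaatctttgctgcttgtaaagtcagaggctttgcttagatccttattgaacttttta
Sult1b1, start 2: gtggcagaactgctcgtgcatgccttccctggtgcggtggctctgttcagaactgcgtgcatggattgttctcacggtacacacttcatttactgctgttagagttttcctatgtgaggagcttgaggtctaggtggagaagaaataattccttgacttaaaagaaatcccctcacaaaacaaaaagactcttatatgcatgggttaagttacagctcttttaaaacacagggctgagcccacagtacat
Sult1d1: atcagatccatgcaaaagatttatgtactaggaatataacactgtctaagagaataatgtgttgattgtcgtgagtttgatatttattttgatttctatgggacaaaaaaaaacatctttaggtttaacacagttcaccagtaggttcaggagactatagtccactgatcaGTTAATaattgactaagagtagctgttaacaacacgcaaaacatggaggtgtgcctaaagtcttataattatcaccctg
GTTAAT stood 79 bases before the Sult1d1 start and was not found in either Sult1b1 window. Over all genes of the array it was present in 4.89% of 18109 windows of this length, and among the members in 5 of 50 windows, those of Gsta3, Sult1a1, Sult1d1, Ugt2a3 and Ugt3a1. The core of the antioxidant response element, TGACNNNGC on either strand, was present in 11.5% of all windows and in 3 of 50 member windows, those of Gsta3, Gstm5 and Gstm7. The antioxidant response element core had no match in the windows shown. Of the 44 member genes, 39 had a listed promoter.

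In mutant liver 2 members rose and none fell by limma at an adjusted p under 0.05, out of 35 members with enough signal to be tested. Among all 13327 genes tested in liver 447, or 3.35%, passed, so 2 of 35 was close to the share over all genes. At an unadjusted p under 0.05 there were 5 members and 2614 of all genes. The 2 called members were both sulfotransferases, and no glutathione S-transferase or glucuronosyltransferase passed. In whole tissue, fewer cells of a type and less RNA per cell cannot be told apart. Values below are normalised intensities, the deposited intensities after quantile normalization within a tissue, and differences are mutant minus control on the log2(intensity + 16) scale, which understates the change of dim genes.

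Sult1d1, a sulfotransferase of catecholamines and related amines in the mouse, read 1010.2, 1054 and 1222 in the 3 control livers and 1873, 1884 and 1856 in the 3 mutant livers. The mutant arrays lay close together and all above the controls. The means were 1095 ± 112 and 1871 ± 14.1 (SD, n = 3), a log2 difference of 0.77 (SE 0.12, adjusted p = 0.0181), or 1.70-fold. The second probe set of the gene read 500.6, 553 and 796 in controls and 1135, 968 and 952 in mutants, and its difference was 0.73 (SE 0.18, adjusted p = 0.071 over all probe sets). Both probe sets thus gave groups that did not overlap, and differences of like size.

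Sult1b1, which sulfates thyroid hormones and small phenols, read 410.1, 325 and 286 in controls and 790.5, 632 and 491 in mutants. The lowest mutant array was above the highest control. The means were 340.4 ± 63.4 and 638 ± 149.9 (SD, n = 3), a log2 difference of 0.86 (SE 0.20, adjusted p = 0.0458), or 1.82-fold. Only 1 probe set measures this gene, so no second reading was at hand.

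Both calls depended on single arrays, while the size of the differences moved by less than 1.5 times. For Sult1d1 the adjusted p was 0.062 without control 1, 0.0564 without control 2, 0.117 without mutant 1 and 0.0542 without mutant 3, and it stayed under 0.05 without control 3 (0.0488) and without mutant 2 (0.0206). Its difference ran from 0.72 to 0.85 over these 6 fits. For Sult1b1 the adjusted p was 0.0729, 0.112 and 0.126 without control 1, 2 and 3, and 0.205, 0.0625 and 0.0579 without mutant 1, 2 and 3, with differences from 0.69 to 1.03.

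**Figure D1:**
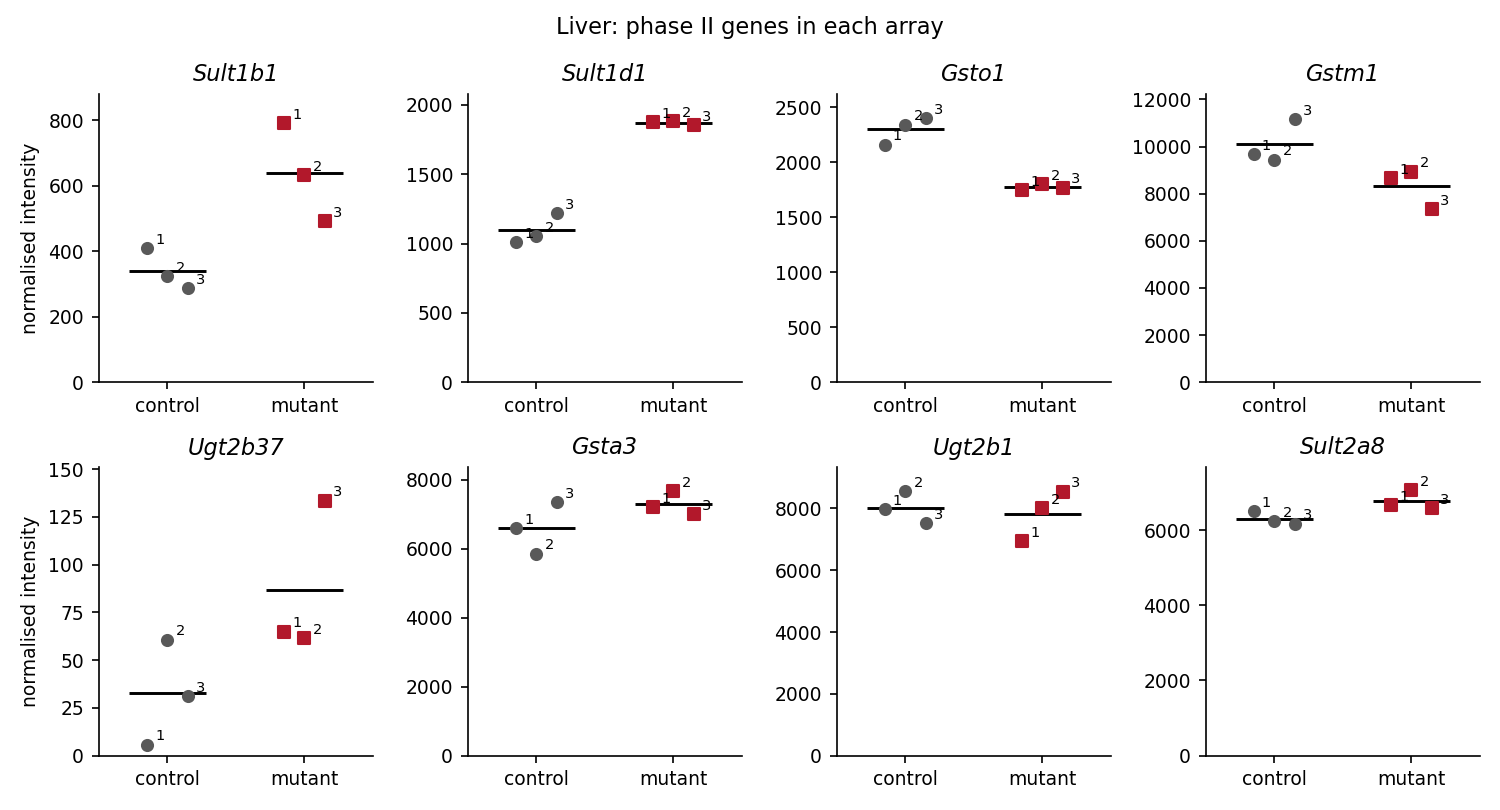
Normalised intensity (linear axis from 0) of 8 phase II genes in each liver array, with controls as grey circles, mutants as red squares, the array number beside each point and a bar at the mean of 3 arrays. In Sult1d1 and Sult1b1 all mutant arrays lie above all controls, with means of 1871 against 1095 and of 638 against 340.4.

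RNA quality differed between the liver arrays. The array carries control probe sets at both ends of the Actb, Gapdh and Pcx transcripts, and their mean log2 ratio of 3′ to 5′ signal was 0.74, 0.97 and 0.50 in the control livers and 1.90, 0.90 and 1.87 in mutants 1, 2 and 3, against 0.33 to 0.56 in muscle. Mutants 1 and 3 thus stood apart. Without these 2 arrays, the difference was 0.77 for Sult1d1 and 0.85 for Sult1b1, as large as with them, and neither passed with the 1 mutant array left (adjusted p = 0.346 and 0.393), which was assumed to vary like the controls. With the ratio as a covariate the differences were 0.83 and 0.82 (adjusted p = 0.339 and 0.571).

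The other sulfotransferases tested in liver did not pass. Sult2a8, which sulfates bile acids in mouse liver, read 6502, 6245 and 6171 in controls and 6670.2, 7063 and 6585 in mutants, a difference of 0.10 (95% interval -0.08 to 0.28, adjusted p = 0.543). Its groups did not overlap, yet the step between them was small after quantile normalization. On the values as deposited the Sult2a8 difference was 0.35, which did not pass either. Sult1a1, the phenol sulfotransferase, read 6622, 5373 and 6517 in controls and 5822, 6016 and 5125 in mutants, a difference of -0.12 (95% interval -0.36 to 0.12). Its sign turned with the scaling: on the values as deposited it was 0.15.

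Sult5a1 and Sult1c2 varied widely within groups. Sult5a1 read 670.3, 613 and 248 in controls and 459, 568 and 866 in mutants, with an interval from -0.39 to 1.13 around 0.37, and without control 3 its difference was -0.07. Sult1c2 read 104, 71.0 and 161 in controls and 158, 174 and 94.4 in mutants, with an interval from -0.30 to 0.95 around 0.32. Sult4a1, an orphan enzyme known from brain, was dim, with 9.11, 29.4 and 54.6 in controls and 25.4, 20.0 and 7.27 in mutants. For these 3 genes the data do not separate a rise from a fall.

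Among the glutathione S-transferases 18 of 20 genes were tested in liver and none passed. Their differences ran from -0.45 to 0.35, 11 of them positive and 7 negative. The 95% interval lay within a 1.5-fold change in both directions for 13 of the 18. The omega class gene Gsto1, which also reduces dehydroascorbate, came nearest to the threshold. It read 2160.3, 2342 and 2398 in controls and 1749.7, 1801 and 1769.9 in mutants, a difference of -0.37 (SE 0.11, adjusted p = 0.0834). After quantile normalization all mutant arrays lay below all controls at this probe set. On the values as deposited its groups overlapped, and the difference was -0.19. The second Gsto1 probe set read 1030.5, 1001 and 1430.0 in controls and 1179, 972 and 1259 in mutants, a difference of -0.01, with groups that overlapped.

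The mu class genes, a tandem cluster of 7 on chromosome 3, differed by -0.28 to 0.21 with a median of 0.04. Gstm1, a major liver enzyme of the class, read 9666, 9449.8 and 11153 in controls and 8672, 8937 and 7331 in mutants, a difference of -0.28 (SE 0.10, adjusted p = 0.160). The groups did not overlap. The 4 probe sets of Gstm1 gave differences from -0.34 to 0.03. The probe set at -0.34 read 9956, 9752 and 11507 in controls and 8326, 8975 and 7345 in mutants, again without overlap. At the other 2 the groups overlapped. On the values as deposited the groups overlapped at all 4 probe sets, and the difference of -0.28 became -0.09. Gstm7 read 758, 796 and 616 in controls and 868, 806 and 836 in mutants, a difference of 0.21 (adjusted p = 0.455). Gstm2 read 876, 902 and 625 in controls and 756, 715 and 856 in mutants, which overlapped. Closely related copies of this class can share probes: Gstm1 and Gstm3 were read by probe sets whose suffix marks possible cross-hybridisation, as were Ugt2b34, Ugt3a1 and Sult6b1, 5 of the 44 members.

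The 3 alpha class genes had positive differences, none of which passed. Gsta4, the main conjugator of the lipid peroxidation product 4-hydroxynonenal, read 1005, 747 and 908 in controls and 1328, 951 and 1124 in mutants, a difference of 0.35 (95% interval -0.01 to 0.71, adjusted p = 0.277). Gsta3 read 6585, 5856 and 7345 in controls and 7203, 7654 and 7008 in mutants, a difference of 0.15 (adjusted p = 0.455). Its second probe set read 2398, 1961 and 2201 in controls and 3417, 2771 and 2897 in mutants, a difference of 0.47 (adjusted p = 0.086 over all probe sets). After quantile normalization the second probe set gave groups that did not overlap and the first gave groups that did. On the values as deposited the groups of the first did not overlap either, and its difference was 0.42, which did not pass. Gsta2 read 969, 608 and 1204 in controls and 1339, 704 and 881 in mutants, a difference of 0.07. A probe set that lists Gsta2 together with Gsta1 and Gm3776 was not a member, and it differed by -0.08.

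The theta class had differences of both signs. Gstt3 read 445, 447 and 831 in controls and 440, 359 and 398 in mutants, a difference of -0.45 (SE 0.23, adjusted p = 0.316). Control 3 stood apart from the other controls, and without it the difference was -0.16. Gstt2 read 2123, 2783 and 2151 in controls and 3580.0, 2446 and 2370.3 in mutants, a difference of 0.23 (adjusted p = 0.506). After quantile normalization mutant 1 alone lay above the controls. On the values as deposited all Gstt2 mutant arrays lay above all controls, and the difference was 0.44, which did not pass either. Gstt1 differed by -0.05.

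The remaining classes gave small differences after quantile normalization. Gstp1, the pi class gene, read 12318, 13289 and 12201 in controls and 12955, 12842 and 13452 in mutants, a difference of 0.05 (95% interval -0.10 to 0.21). Its near-identical copy Gstp2 lies beside it in the genome, so its reading is uncertain as to which copy it measures. Gstz1, the maleylacetoacetate isomerase of tyrosine breakdown, read 4212, 4368 and 4219 in controls and 4573, 5596 and 4509 in mutants, a difference of 0.19 (95% interval -0.04 to 0.42, adjusted p = 0.359). On the values as deposited Gstp1 differed by 0.17 and Gstz1 by 0.46, with groups that did not overlap, and neither passed. Gstk1, the kappa class enzyme of mitochondria and peroxisomes, read 3015, 2671 and 2546 in controls and 2302, 2783 and 2559.8 in mutants, a difference of -0.11 whose sign turned to 0.09 on the values as deposited.

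Among the glucuronosyltransferases 10 of 11 genes were tested in liver and none passed. Of these, 7 differences were positive and 3 negative, with a median of 0.02. For 8 of the 10 the 95% interval lay within a 1.5-fold change in both directions. The Ugt2b enzymes, which act on steroids, bile acids and drugs, gave differences close to 0 after quantile normalization at 3 of their bright probe sets. Ugt2b5 read 7255, 7063 and 7233 in controls and 7123, 7233 and 7541 in mutants, a difference of 0.02 (95% interval -0.15 to 0.19). Ugt2b36 read 7162, 7401 and 6854 in controls and 7193, 7193 and 7063 in mutants, a difference of 0.00 (95% interval -0.17 to 0.18). Ugt2b1 read 7979.7, 8565 and 7524 in controls and 6950.4, 7997 and 8543 in mutants, a difference of -0.04 (95% interval -0.25 to 0.18) that was 0.16 on the values as deposited. In these 3 genes the groups of normalised values overlapped. On the values as deposited all mutants lay above all controls in each of the 3. Ugt2b5 and Ugt2b36 then differed by 0.26 and 0.24, and none of the 3 passed.

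Ugt2b37 and Ugt2b38 had the largest differences among the 10 tested genes of the family, and the weakest signal among them. Ugt2b37 read 5.80, 60.8 and 31.3 in controls and 65.0, 61.7 and 133.6 in mutants, a difference of 1.19 (95% interval 0.24 to 2.14, adjusted p = 0.160). Its groups did not overlap, but control 2 and mutant 2 were nearly equal. Ugt2b38 read 86.6, 44.8 and 34.4 in controls and 30.3, 104.8 and 15.5 in mutants, a difference of -0.28 with an interval from -1.29 to 0.73. Ugt2b35 read 4136, 3846 and 4664 in controls and 4895, 4408 and 4675 in mutants, a difference of 0.15. The Ugt3a enzymes, which use sugars other than glucuronic acid, had differences of opposite sign that did not pass: Ugt3a1 differed by 0.16 (95% interval -0.19 to 0.50) and Ugt3a2 by -0.13 (95% interval -0.34 to 0.08). The sign of Ugt3a2 turned to 0.13 on the values as deposited.

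The Ugt1a genes, which include the bilirubin enzyme Ugt1a1, share their last exons, and their 3 probe sets list several symbols, so they could not be assigned to a gene and were not members. All 3 differences were negative, from -0.49 to -0.07, with adjusted p from 0.0829 to 0.707 over all probe sets. The probe set with the largest difference read 7123, 6414 and 7435 in controls and 4469, 6099.7 and 4441 in mutants. Mutants 1 and 3, the arrays with the high 3′ to 5′ ratio, were the low ones, and the part of that ratio in the difference was not tested.

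**Figure D2:**
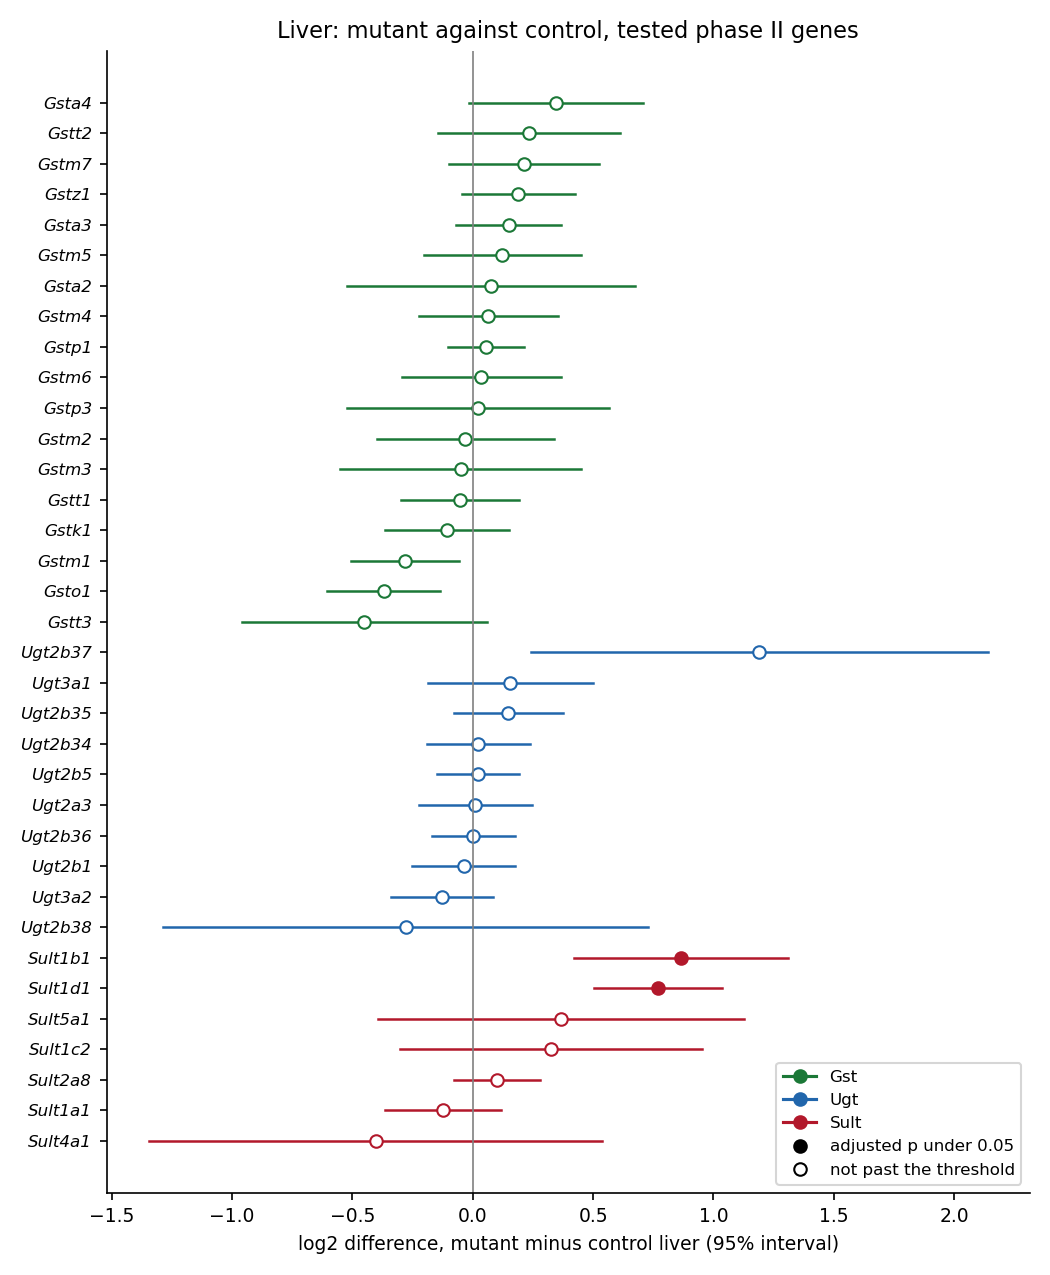
Log2 difference between mutant and control liver with its 95% interval for the 35 tested members, grouped as Gst (green), Ugt (blue) and Sult (red), with filled points for an adjusted p under 0.05. Only Sult1b1 at 0.86 and Sult1d1 at 0.77 are filled, and most Gst and Ugt points lie close to 0.

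The largest run of members lies on chromosome 5, where 8 Ugt2 genes are followed by Sult1b1, Sult1d1 and Sult1e1. In gene order the liver differences were 0.02 for Ugt2b34, -0.04 for Ugt2b1, 0.15 for Ugt2b35, 0.00 for Ugt2b36, 0.02 for Ugt2b5, 1.19 for Ugt2b37, 0.01 for Ugt2a3, -0.28 for Ugt2b38, 0.86 for Sult1b1 and 0.77 for Sult1d1. The neighbours Ugt2a1 and Ugt2a2, between Ugt2b38 and Sult1b1, share a probe set that differed by -0.01 at values of 7.07 to 52.6. Sult1e1, the oestrogen sulfotransferase on the far side of Sult1d1, was too dim to be tested: the controls read 2.15 to 3.68 and the mutants 3.98 to 6.60. The 2 genes that rose were thus neighbours, between glucuronosyltransferase genes that did not pass and a sulfotransferase gene near the lower end of the scale. Whether the 2 neighbours share probe sequence was not tested.

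**Figure D3:**
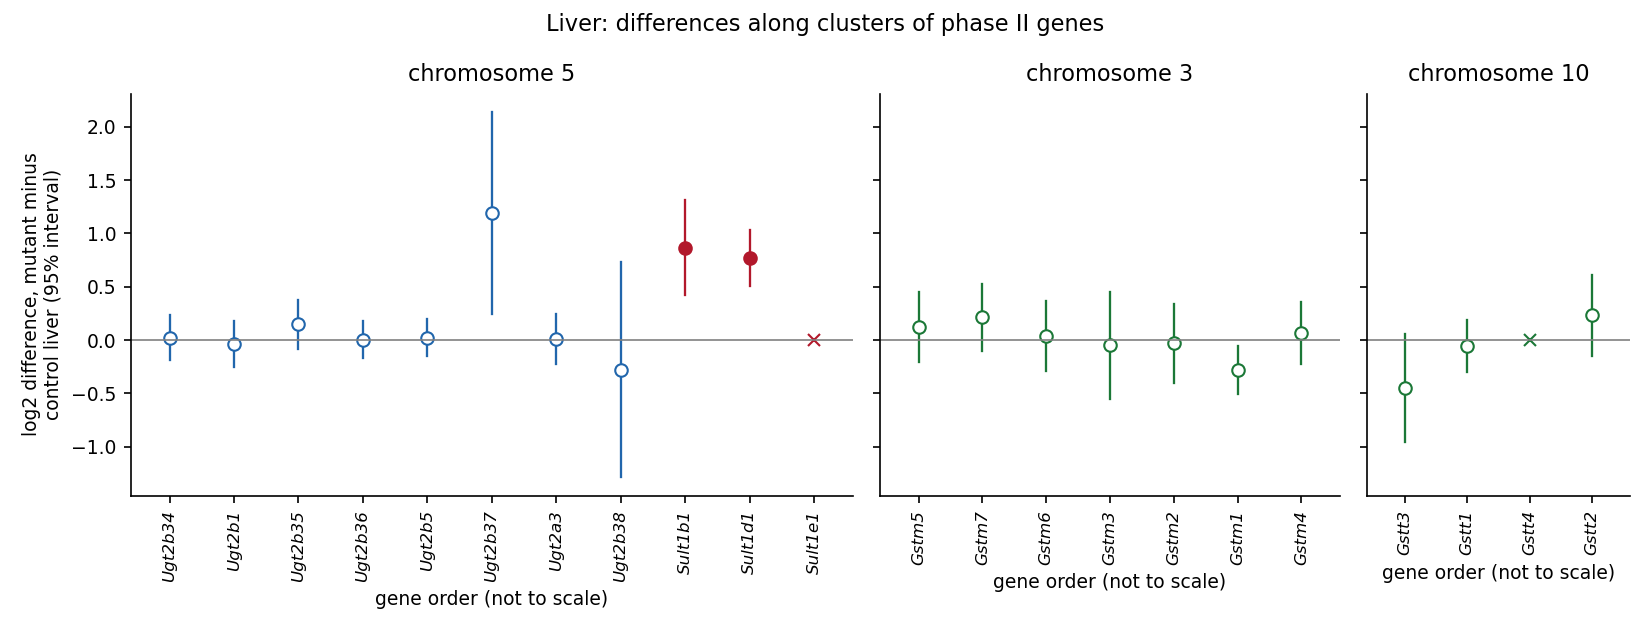
Log2 difference between mutant and control liver with its 95% interval for members of the clusters on chromosomes 5, 3 and 10, in gene order and not to scale, with Ugt in blue, Sult in red and Gst in green. Filled points passed the test, and crosses at 0 mark genes too dim to be tested, which have no value; Sult1b1 at 0.86 and Sult1d1 at 0.77 stand side by side.

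Compared as families, the medians of the liver differences were 0.05 for Gst over 18 genes, 0.02 for Ugt over 10 and 0.32 for Sult over 7, beside 0.01 over all genes tested. The median size of a difference, whatever its sign, was 0.12 for Gst, 0.08 for Ugt and 0.37 for Sult, beside 0.24 over all genes. On the values as deposited these sizes were 0.18, 0.25 and 0.41, beside 0.24, so whether the Ugt median size lay below that of all genes depended on the scaling. These medians are a description of few genes: the Sult median fell to 0.16 with dim genes included, and to 0.17 and 0.12 without mutant 2 and without mutant 3. The Gst median was 0.12 without mutant 3. Array by array, the Sult median lay at 0.04, -0.05 and 0.08 from the control mean in the controls and at 0.08, 0.27 and 0.06 in the mutants, so the groups of arrays overlapped. Groups that did not overlap were seen for 9 of the 35 members, 6 higher and 3 lower in the mutant, against 24.0% of all genes tested, so the share was near that of the array as a whole. They were Gstm7, Gstz1, Ugt2b37, Sult1b1, Sult1d1 and Sult2a8 on the higher side and Gstm1, Gsto1 and Gstt3 on the lower. This split holds for the quantile-normalised values. On the values as deposited the groups of Gstm1, Gsto1 and Gstt3 overlapped. Those of Gsta3, Gstp1, Gstt2, Ugt2b1, Ugt2b5 and Ugt2b36 then did not overlap, with the mutants higher.

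The scaling of the arrays bears on the bright members. As deposited, the 500 brightest genes in control liver had a median difference of 0.12, and after quantile normalization one of -0.09, while the median over all genes was 0.02 and 0.01. Of the 35 tested members 23 were higher in the mutant after quantile normalization and 30 on the values as deposited. The Gst and Ugt medians became 0.16 and 0.24 on the values as deposited. Sult1d1 and Sult1b1 passed on both scales, with differences of 0.92 and 0.90 as deposited.

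**Figure D4:**
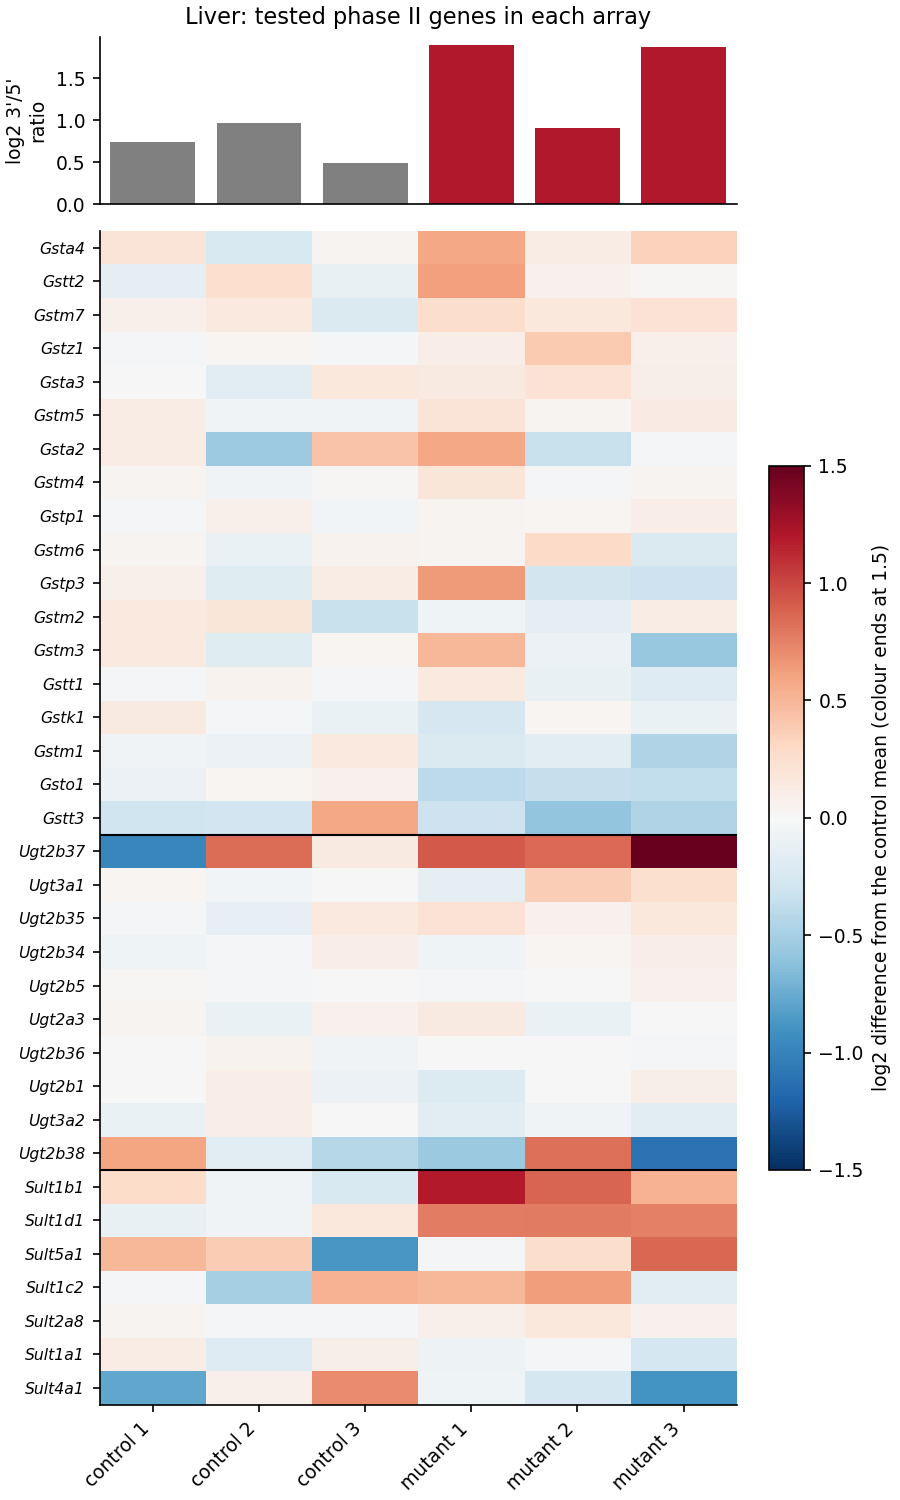
Log2 difference of each liver array from the control mean for the 35 tested members (rows by family: Gst, Ugt, Sult; colour scale ending at 1.5 in either direction), under bars of the log2 3′ to 5′ signal ratio of each array's control transcripts. Sult1d1 lies above the control mean in all 3 mutant arrays, and the ratio is highest in mutants 1 and 3.

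The genes that supply and surround conjugation were read from fixed lists. In liver 1 of 12 tested genes of cofactor supply rose and none fell, with a median of -0.19. It was Slc35b3, a carrier that moves PAPS into the Golgi, whereas the sulfotransferases studied here are cytosolic. It read 123, 140.3 and 142 in controls and 287, 218 and 209.9 in mutants, a difference of 0.74 (adjusted p = 0.0467). On the values as deposited no gene of this list passed. Papss2, which makes PAPS and is named here after its values were seen, read 3207, 2348 and 2142 in controls and 1703, 1695 and 1449 in mutants, a difference of -0.64 that missed the threshold (adjusted p = 0.0524). The 12 differences of the list were 9 negative and 3 positive. Also read after their values were seen, Slc26a1 differed by -0.81, Bpnt1 by -0.69, Slc35b2 by 0.62 and Papss1 by -0.11, and none of these passed. Of 14 tested conjugating and detoxifying enzymes outside the 3 families 1 fell and none rose. It was Ephx1, the microsomal epoxide hydrolase, with 3744, 3504 and 3989 in controls and 2574, 2440 and 2415 in mutants, a difference of -0.59 (adjusted p = 0.0198). On the values as deposited 1 gene of this list passed, and with median scaling none did.

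None of 13 sensors and regulators of these genes passed in liver, with 11 negative differences and a median of -0.25. Their sum was 11205 to 12703 in the controls and 9206, 10853 and 8664 in mutants 1, 2 and 3. It was lowest in the 2 arrays with the high 3′ to 5′ ratio, whose part in this shift was not tested. Ppargc1b itself, the mutated gene, read 544, 282 and 479 in control liver and 402, 491 and 202 in mutant liver, a difference of -0.28 (SE 0.32, adjusted p = 0.692), so its RNA level at this probe set did not mark the mutant samples. The labels do not place the mutation relative to this probe set. None of 9 targets of NRF2, the factor that reads the antioxidant response element, passed, with 4 positive and 5 negative differences, or 7 and 2 on the values as deposited. None of 6 enzymes that remove or break down conjugates passed.

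Cell type markers checked the tissues and their makeup. The 10 hepatocyte markers summed to 126219 to 127365 in control liver and 119378 to 122457 in mutant liver, against 294 to 712 in control muscle. None passed the test, although all 10 differences were negative, with a median of -0.03, and the sums of the groups did not overlap. On the values as deposited 8 were positive and 2 negative, so this direction turned with the scaling. The 7 muscle markers summed to 94.0 to 159 in liver and to 80171 to 80875 in muscle. Of 10 Kupffer cell and macrophage markers 9 were positive in mutant liver with a median of 0.34, and Vsig4, a Kupffer cell receptor, passed (0.80, adjusted p = 0.0453). On the values as deposited no marker of this list passed, while all 10 were positive with a median of 0.34. With median centring 1 of these markers passed. Their sum was 2226 to 3085 in control livers and 3191 to 4116 in mutant livers, which did not overlap. The 7 periportal hepatocyte markers had 5 negative differences, and their sum was 32002 to 33038 in controls and 26137 to 28440 in mutants. The 9 pericentral markers tested had 8 negative differences, 4 on the values as deposited, and sums that overlapped. Neither list held a call. The 3 lymphocyte markers tested in liver, which were dim, were all positive with a median of 0.41, and none passed. The sum of the lymphocyte list was 149 to 206 in controls and 223 to 279 in mutants, which did not overlap. The sums of the cholangiocyte, stellate cell, endothelial cell, red cell and adipocyte lists overlapped in liver, and these lists held no call. The part of these shifts in the rise of Sult1b1 and Sult1d1 was not tested.

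In muscle no member passed the test. Of 21 tested members, 15 Gst, 2 Ugt and 4 Sult, 0 passed limma, and at an unadjusted p under 0.05 there were 0 as well. Over all 13131 genes tested in muscle 2 passed, or 0.0152%, and 560 were under 0.05 before adjustment. The groups overlapped for all 21 members, against 9.53% of all genes whose groups did not. The smallest p was that of Gstp1 (unadjusted p = 0.120, adjusted p = 0.994), which read 2774, 3009 and 2789 in controls and 3244, 3125 and 2986 in mutants, a difference of 0.13 (95% interval -0.04 to 0.29). For 15 of the 21 members the 95% interval lay within a 1.5-fold change in both directions.

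Other members in muscle showed the same mixture. Gstm2 read 225, 377 and 276 in controls and 417, 389 and 260.3 in mutants, a difference of 0.27 (95% interval -0.20 to 0.74). Gstm5 read 948, 941 and 808 in controls and 909, 857 and 697 in mutants, a difference of -0.13 (95% interval -0.40 to 0.14). Sult1a1 read 108, 145 and 138 in controls and 129, 157 and 162 in mutants, a difference of 0.18 (95% interval -0.16 to 0.52). All 3 pairs of groups overlapped. Gstk1 differed by 0.11 and the dim Ugt3a1 by -0.29, with intervals from -0.18 to 0.41 and from -0.91 to 0.33. The median over the tested members was -0.07, with 7 positive and 14 negative. No list of cofactor, regulator or marker genes held a call in muscle.

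The difference between the tissues was tested for the 20 members with enough signal in both, by the interaction term over all 12 arrays. By limma 0 of 20 passed, and 0 did so at an unadjusted p under 0.05, beside 168 of 11842 genes, or 1.42%. Gsta4 had the smallest p (unadjusted p = 0.064), with a liver effect above the muscle effect by 0.43 (95% interval -0.03 to 0.89). Intervals were wide, and only 3 of the 20 lay within a 1.5-fold change in both directions. Sult1b1 and Sult1d1 were too dim in muscle to enter this test, so their rise is not shown to be particular to liver.

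Control liver and control muscle were compared as a map of where the enzymes are expressed. All 33 members tested differed between the tissues by limma, against 57.4% of all 13436 genes tested. Of these, 32 were higher in liver, where 27.5% of all genes were higher, and only Gstm5 was lower, as were 29.9% of all genes. The filter works on the mean over the 6 arrays and lets in genes that are bright in liver alone, which had to differ, so these counts are a description; without a filter 34 of all 44 members passed. The mutant arrays play no part in this comparison, which shares its liver controls with the comparison above. The levels quoted next are deposited intensities, and the differences are liver minus muscle after quantile normalization of the 6 arrays together. A difference is given for members above the filter in both tissues, 20 of the 33. The other 13, of which 3 were Gst, 7 Ugt and 3 Sult, were all higher in liver but read 0.200 to 18.9 in muscle, where a difference would rest on the offset, so only their levels are given.

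Of the 9 glucuronosyltransferases tested, 7 were below the muscle filter. Ugt2b5 read 6564, 6075 and 7219 in liver and 9.20, 0.700 and 0.200 in muscle. Ugt2b1 read 7484, 7583 and 7493 in liver and 14.3, 19.6 and 12.8 in muscle, which is close to the muscle filter. Both had strong signal in liver and were near the lower end of the scale in muscle. Of the 6 sulfotransferases tested, Sult1a1 was above the filter in both tissues, with 5917, 4497 and 6525 in liver and 113, 135 and 139 in muscle, a difference of 4.62 (SE 0.14, adjusted p = 2.81e-10). Sult1d1 read 906, 911 and 1365 in liver and 16.4, 2.30 and 6.40 in muscle, and Sult1b1 read 389, 284 and 343 in liver and 1.00, 1.70 and 1.30 in muscle. The 2 sulfotransferases that rose in mutant liver were thus read in liver and below the filter in muscle.

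Of the 18 glutathione S-transferases tested, 15 were above the filter in both tissues, with differences from -2.22 to 4.48. Gstp1 read 12150.1, 12283 and 12185 in liver and 2872, 2836 and 2869 in muscle, a difference of 1.5 (SE 0.09, adjusted p = 6.6e-08). Gstm2 differed by 0.71 (SE 0.20, adjusted p = 0.0101). Gstm5 read 309, 247 and 339 in liver and 984, 879.9 and 801 in muscle, a difference of -2.22 (SE 0.12, adjusted p = 4.01e-08). Genes of the same mu class cluster thus lay on either side, Gstm5 higher in muscle and the other 6 higher in liver. Gsta3, of the alpha class, read 5872, 4861 and 7332 in liver and 0.9, 1.1 and 2.5 in muscle. A mean above 1000 was reached by 20 members in control liver, 10 Gst, 7 Ugt and 3 Sult, and by Gstp1 and Gstm1 alone in control muscle.

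**Figure D5:**
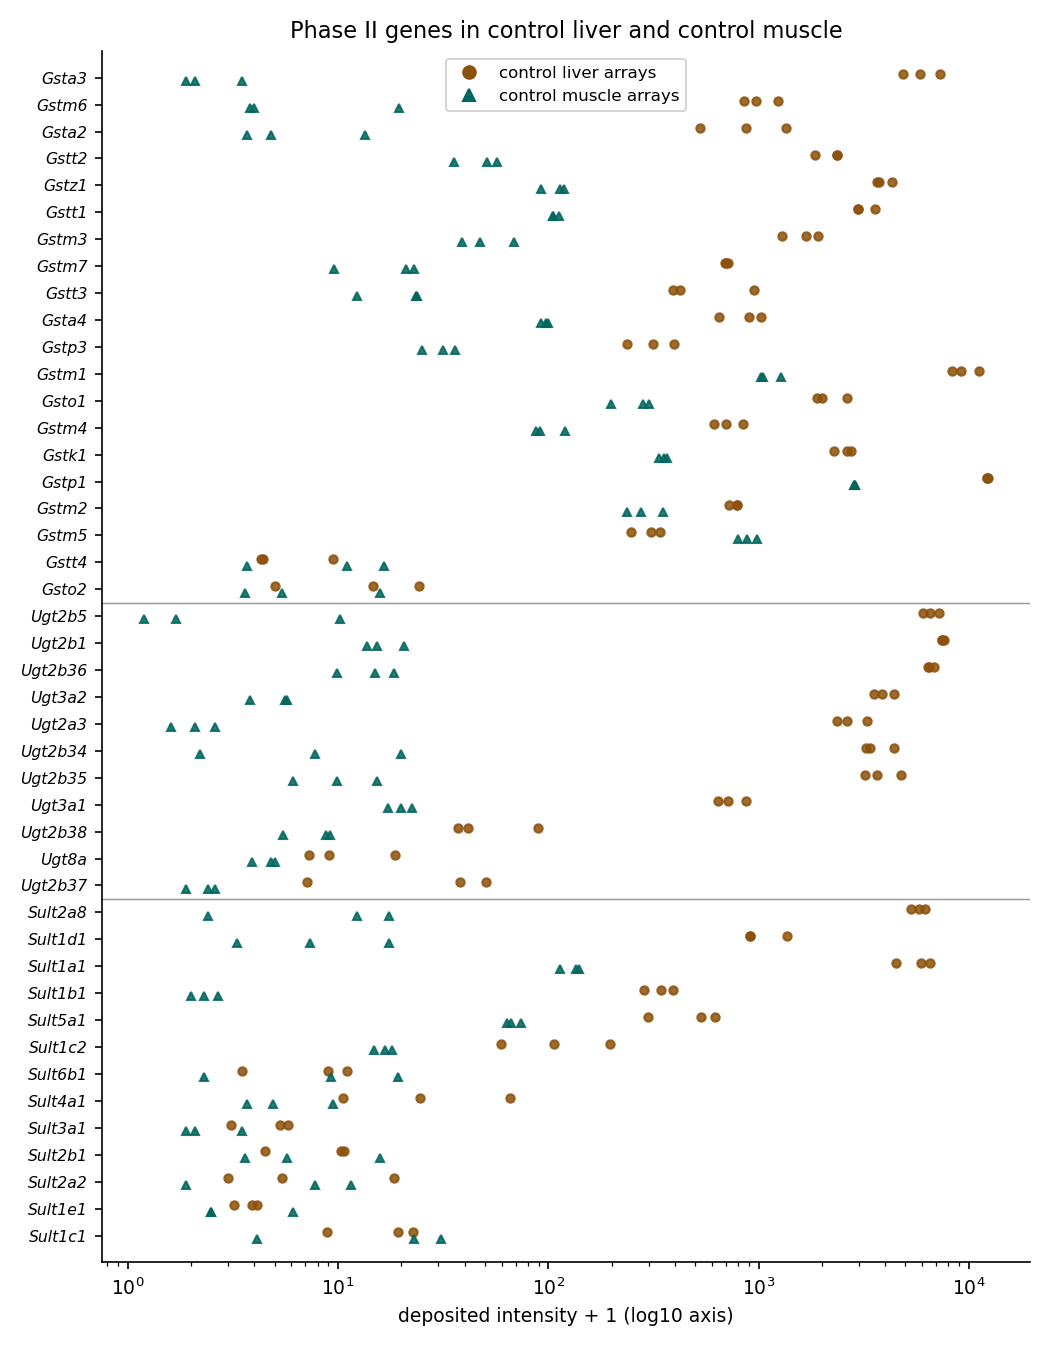
Deposited intensity plus 1 (log10 axis) of the 44 members in each of 3 control liver arrays (brown circles) and 3 control muscle arrays (green triangles), with lines between the Gst, Ugt and Sult families. Gstm5 is the tested gene whose muscle points lie above its liver points, and levels of different genes are not comparable because each is read by its own probe set.

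Members below the filter complete the account. In liver 9 were not tested: Gsto2, Gstt4, Ugt8a, Sult1c1, Sult1e1, Sult2a2, Sult2b1, Sult3a1 and Sult6b1, with normalised values from 0.950 to 40.8 in single arrays. The filter stood at a normalised intensity of 21.5 in liver and 13.05 in muscle, where 23 members fell below it, and 8 members were tested in neither tissue. Among them were Ugt8a, the ceramide galactosyltransferase of myelin, and Sult2b1, a cholesterol sulfotransferase known from skin. For these genes the arrays gave no usable level in the tissue, which does not show that the genes are silent there.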

How the data were processed

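The authors deposited 1 linear intensity per probe set for each of 12 arrays. The sources used here do not give the probe summary or the scaling between arrays; per the series' design text, d-Chip served for clustering. The median intensity of an array was 27.2 to 40.1 for liver and 20.1 to 22.3 for muscle, and precision is limited by the number of arrays. Control probe sets, 64 of 45101, were left out. Symbols were checked through Entrez identifiers with GRCm38.p6 tables, which matched all 56 member probe sets, and promoters came from RefSeq tables of that build. The probe set with the highest mean log2 value stood for a gene.

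Values were taken as log2(value + 16) and normalised by quantiles within a tissue. Genes whose tissue mean exceeded the 40th percentile over probe sets were fitted with limma 3.58.1 in R 4.3.3 (trended variance, 4 residual degrees of freedom per tissue, 8 for the difference between tissues), with p-values adjusted by Benjamini-Hochberg across every gene tested and called under 0.05. The fits were tested on simulated data. Figures were drawn with matplotlib 3.10.9.

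Named were the members that passed, in each family the 6 with the largest liver difference and the 4 brightest in control liver, and the 6 with the smallest p in muscle. Other members appear in accounts of a class, cluster or tissue, some with single values, such as Gsta2 and Gstt1. The members, lists and motifs were chosen with earlier results of these data known. Alternatives were other offsets, filters, scalings and probe set rules, no variance trend, a replicate block, leaving out arrays, and the control probe sets' 3′ to 5′ ratio as a term in the fit.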

Additional observations from a re-analysis of the deposited data

How the results depend on the processing

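The count of members past the threshold in liver, 2 as reported, was 1 with an offset of 1, without a filter, with every probe set on its own and with the mean of probe sets, and Sult1d1 was the member that passed in each. It was 0 without a variance trend, where 0 of all genes passed, 0 with a replicate block, 0 without liver mutants 1 and 3 together, and 0 with the 3′ to 5′ ratio as covariate, and 0 to 1 without 1 array. It stayed at 2 with an offset of 64, a 60th percentile filter, median centring and values as deposited. Sult1b1 and Sult1d1 were higher in the mutant under all 18 alternatives run for each, with differences from 0.69 to 1.03 and from 0.72 to 0.92. Calls stayed at 0 in muscle and for the difference between tissues under all alternatives, and 32 to 42 members or probe sets passed between tissues.

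Median differences in liver became 0.155 for Gst and 0.243 for Ugt on values as deposited and 0.150 and 0.238 with median centring, and 0.157 for Sult without a filter; without 1 array they ran from -0.00515 to 0.12 for Gst, 0.00869 to 0.0443 for Ugt and 0.12 to 0.40 for Sult. The cause of these moves was not tested.

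Same-numbered control and mutant liver arrays correlated at -0.114 to -0.009 in their deviations, against -0.076 to 0.109 for other numbers, which shows no pairing. In muscle the same-numbered arrays correlated at 0.034 to 0.195, against -0.163 to 0.085 for other numbers. Whether the numbers mark pairs in muscle is thus not settled, and the main fit takes no account of them. With the replicate block 11 genes of the whole array passed in liver, against 447.

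Of 726 alternative values for named genes 47 had the opposite sign, all among genes that did not pass. On values as deposited and with median centring, liver differences became 0.0919 and 0.0871 for Gstk1, 0.0483 and 0.0434 for Gstm2, 0.15 and 0.14 for Sult1a1, 0.16 and 0.15 for Ugt2b1 and 0.13 and 0.12 for Ugt3a2, and the muscle difference of Gstm1 0.0057 and 0.0186 (0.13 with the mean of probe sets). With the ratio as covariate they became 0.0176 for Gstk1, -0.00427 for Gstp1, -0.0488 for Gstt2, 0.0442 for Sult1a1, -0.052 for Sult5a1, -0.0167 for Ugt2b36 and 0.83 for Ugt2b38, and without mutants 1 and 3 together 0.0204 for Gstk1 and 0.84 for Ugt2b38. Without 1 array, liver differences ran from -0.198 to 0.0629 for Gstm2, -0.0722 to 0.625 for Sult5a1, -0.107 to 0.046 for Ugt2b1, -0.0238 to 0.0281 for Ugt2b36, -0.831 to 0.14 for Ugt2b38 and -0.000334 to 0.0426 for Ugt2b5. In muscle they ran from -0.27 to 0.18 for Gstm1, -0.40 to 0.18 for Gstm7, -0.17 to 0.11 for Gstt2, -0.11 to 0.13 for Gstt3, -0.20 to 0.00396 for Gstz1, -0.21 to 0.0544 for Sult1c2, -0.14 to 0.00519 for Sult5a1 and -0.015 to 0.15 for Ugt2b1.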
